A study of Mus musculus with 12 samples.

Results

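P2- PreMegEs were compared with WT PreMegEs by RNA-Seq to ask how progenitors without detectable activity of the proximal Runx1 promoter differ from the unfractionated population. Of the 41128 genes in the count table, 12767 had at least 1 CPM (counts relative to the library total) in at least 3 of the 6 libraries of these groups and were tested. PreMegEs are bone marrow progenitors of megakaryocytes (Mk) and erythroid cells (Ery), sorted as Lineage-, Sca1-, CD16/32-, cKit+ cells by CD150, CD41 and Endoglin. The series holds 12 libraries in 4 groups of 3, and the other 2 groups are P2+ PreMegEs and PreMegEs of RUNX1C KO mice. The WT libraries came from wild type mice. The P2- libraries came from Runx1 P1-GFP::P2-hCD4/+ mice and hold the GFP-positive, hCD4-negative cells. In these mice 1 Runx1 allele reports the distal promoter P1 by GFP and the proximal promoter P2 by human CD4 on the cell surface. The other allele is unmodified, and the paper speaks of Runx1 haploinsufficiency in these mice. All mice were C57BL/6, 12 to 16 weeks old, of both sexes, and each library was made from adult bone marrow cells pooled from 3 mice. The P2- cells therefore differ from the WT cells both by the reporter allele and by the sort, and the effects of these cannot be told apart in this comparison.

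RUNX1 is a DNA-binding transcription factor that pairs with CBFB and is required for blood formation and for the maturation of megakaryocytes. Its gene is read from both promoters, and the transcripts differ in their first exons and in the start of the protein. Mk and Ery progenitors share a parent cell, in which the Ets factor FLI1 is known to favour Mk genes and KLF1 Ery genes, while GATA1 serves both lineages.

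The 6 libraries held between 10726098 and 14445026 counts, so that 3 counts, the limit taken for a count of 0, corresponded to between 0.208 and 0.28 CPM, which covers counting error only. Replicate 2 of P2- stood apart. The chi-square per degree of freedom between it and the other P2- libraries was 30 and 32.8, against 9.36 between those 2 libraries and 7.4 to 10.4 between WT libraries. Its immediate early genes were high, and results that rest on it are given with and without it. Mitochondrially encoded genes took 2.04% to 2.37% of the counts in WT and 2.02% to 2.87% in P2- libraries. The sexes were mixed differently, since Xist, expressed from the inactive X chromosome of females, ranged from 989 to 2337 CPM in WT and from 0 to 2726 CPM in P2- libraries, and none of the 5 sex chromosome transcripts tested passed the threshold. The antigens of the sort were checked through their genes. Kit, the stem cell factor receptor, lay between 886 and 994 CPM in WT and 915 and 1155 CPM in P2-, and Slamf1 (CD150) and Eng (Endoglin) were present in all 6 libraries at overlapping levels. Of 10 surface marker genes tested (of 15 listed), 0 rose and 2 fell, namely Itga2b, although the gate takes cells without its product CD41 on their surface, and Cd34, which was not an antigen of this sort. Without replicate 2 of P2-, 1 of them rose, namely Kit by 0.27 on the log2 scale (adjusted p = 0.0292), and 3 fell.

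Relative to WT, 73 genes were higher and 524 were lower in P2- PreMegEs by at least 2-fold at an adjusted p under 0.05 (edgeR quasi-likelihood test with Benjamini-Hochberg adjustment). These were 0.572% and 4.1% of all genes tested. Without the limit on size, 875 genes (6.85%) rose and 1226 genes (9.6%) fell, and the median log2 fold change over all genes was 0.01, with quartiles at -0.21 and 0.18. Falls were also deeper. Among the lower genes 134 fell by at least 4-fold (largest log2 change 4.34 in size), against 9 rises of that size (largest 3.03). The largest fall, of Ackr1, is uncertain in size, since its mean of 0.0821 CPM in P2- lies under the limit for a count of 0. Most PreMegEs of the reporter mice lacked P2-hCD4 in the paper. Sorting out a majority can raise a gene only modestly over the whole population but can lower it without limit. Rises and falls are therefore not on an equal footing, and their balance was not tested. Many of the lower genes were weakly expressed, since 295 of them (56.3%) had under 10 CPM in WT. Of the higher genes 26 (35.6%) had under 10 CPM in P2-, and of all genes tested 23.8% lay under 10 CPM in both groups. The number of lower genes depended on the WT replicates, and without replicate 1 of WT it was 346. Without replicate 2 of P2-, 622 genes were changed, of which 517 were among the 597 of all libraries.

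**Figure D1:**
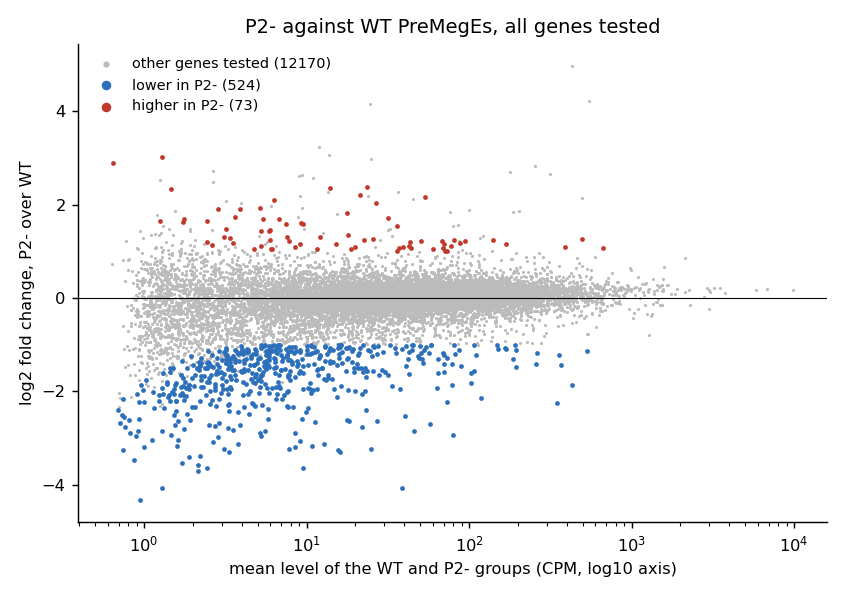
Log2 fold change of P2- over WT PreMegEs (y axis) against the mean level of the gene in the 6 libraries on a log10 CPM axis (x axis), 1 point per gene for all 12767 genes tested. The 73 genes higher and 524 genes lower in P2- by at least 2-fold at an adjusted p under 0.05 are coloured, and the lower genes reach further from 0 than the higher genes.

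Runx1 itself (ENSMUSG00000022952, chr16:92601466-92826149 in GRCm38, minus strand) had 359.9, 386 and 357 CPM in the WT and 213, 203 and 216 CPM in the P2- libraries. All 3 P2- libraries lay below all WT libraries. The log2 fold change was -0.81 ± 0.08 (SE), adjusted p = 9.55e-05, a fall to a level 1.75-fold lower than WT. The counts cover transcripts from both promoters together. They may be affected by the reporter inserted in 1 allele, and the paper speaks of Runx1 haploinsufficiency in these mice. The parts of the allele and of the sort in this fall cannot be told apart here. The antisense gene Gm26626 overlaps Runx1. The windows from 250 bases before to 50 bases after each start in RefSeq (build GRCm38.p6, minus strand) are shown because the sort divides cells by the second of them. Capitals mark 4 short motifs on either strand. For RUNX factors the word searched was TGTGGT. The word for erythroid zinc fingers of the GATA family was AGATAA. Ets factors were represented by the letters AGGAAG. The one for KLF factors read CCACACC. The P1 window is chr16:92826025-92826324 and the P2 window chr16:92697280-92697579.
Runx1 P1: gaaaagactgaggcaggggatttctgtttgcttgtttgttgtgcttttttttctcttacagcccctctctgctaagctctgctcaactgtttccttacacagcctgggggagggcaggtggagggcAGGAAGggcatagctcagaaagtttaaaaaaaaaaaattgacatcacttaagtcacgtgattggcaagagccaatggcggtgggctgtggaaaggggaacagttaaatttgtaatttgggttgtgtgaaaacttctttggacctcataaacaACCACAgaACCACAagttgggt
Runx1 P2: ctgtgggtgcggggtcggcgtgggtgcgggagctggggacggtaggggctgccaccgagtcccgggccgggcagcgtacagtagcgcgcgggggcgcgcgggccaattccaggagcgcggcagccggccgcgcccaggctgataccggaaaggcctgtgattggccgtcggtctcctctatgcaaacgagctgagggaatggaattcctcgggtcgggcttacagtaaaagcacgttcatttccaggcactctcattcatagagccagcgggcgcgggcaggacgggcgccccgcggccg
The P1 window held 2 RUNX matches just after the start and 1 Ets match, and the P2 window held 0 matches to the 4 words. Per exonic length, the level of Runx1 was 30.6 RPKM (CPM per kilobase) in WT and 17.5 RPKM in P2-, and that of its relative Runx3 was 54.8 and 51.3 RPKM (log2 fold change -0.10, adjusted p = 0.4). Runx2 fell (log2 fold change -0.52 ± 0.10 (SE), adjusted p = 0.00844), and Cbfb, the common partner of these factors, had a log2 fold change of -0.24 with an adjusted p of 0.0738 (0.0197 without replicate 2 of P2-, 0.0275 by DESeq2 and 0.0313 with library totals alone). Within 10 Mb of the Runx1 start on chromosome 16, 6 of 66 genes tested rose and 4 fell, a share of 15.2% against 16.5% of all genes. Besides the threshold on p, only Jam2, a junctional adhesion molecule, also passed the 2-fold limit there (2.34, 4.98 and 4.37 CPM in the WT and 0.636, 1.45 and 1.27 CPM in the P2- libraries), and its adjusted p of 0.0185 rose to 0.0803, 0.0615 and 0.0555 without replicates 2 or 3 of WT or replicate 1 of P2-.

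Of 39 transcription factors of the Mk and Ery lineages tested, 8 rose and 13 fell in P2- PreMegEs, with a median log2 fold change of -0.15. Meis1, a homeodomain factor of stem cells, fell (-1.12 ± 0.09 (SE), adjusted p = 5.3e-05). Mecom, a stem cell zinc finger factor, went from 25.5 ± 2.56 (SD, n = 3) CPM in WT to 6.93 ± 2.97 (SD, n = 3) CPM in P2- (log2 fold change -1.88 ± 0.27 (SE), adjusted p = 0.00123). Among the Ets factors, Fli1, the factor best known for Mk genes, had 252, 278 and 261 CPM in the WT and 95.9, 98 and 128 CPM in the P2- libraries. The highest P2- library lay below the lowest WT library (log2 fold change -1.30 ± 0.11 (SE), adjusted p = 6.39e-05). Ets1 (-1.57 ± 0.20 (SE), adjusted p = 0.000568), Erg (-0.76 ± 0.11 (SE), adjusted p = 0.00115) and Etv6 (-0.61 ± 0.07 (SE), adjusted p = 0.000197) fell too. Mef2c, which acts in Mk and lymphoid cells, had 522, 578 and 519 CPM in the WT and 197, 201 and 200.3 CPM in the P2- libraries, with little spread inside either group (log2 fold change -1.44 ± 0.08 (SE), adjusted p = 8.97e-06). Mycn, a MYC relative of stem cells, fell to 45.2 ± 11.6 (SD, n = 3) CPM from 159.8 ± 3.06 (SD, n = 3) CPM. The other direction was taken by Klf1, the Ery regulator, with 225, 219.8 and 241 CPM in the WT and 437, 356 and 376 CPM in the P2- libraries. Every P2- library lay above every WT library (log2 fold change 0.77 ± 0.09 (SE), adjusted p = 0.00042). Klf3, itself a target of KLF1, rose (0.60 ± 0.12 (SE), adjusted p = 0.00859), and so did Nfia (0.57 ± 0.12 (SE), adjusted p = 0.00842), Lyl1 (0.56 ± 0.07 (SE), adjusted p = 0.000682), Myb (0.41 ± 0.07 (SE), adjusted p = 0.00415) and Ikzf1 (0.35 ± 0.07 (SE), adjusted p = 0.00596). Several core factors did not pass the test. Tal1 had a log2 fold change of 0.03 (adjusted p = 0.827), Gata1 of 0.24 (adjusted p = 0.0586, or 0.0381 without replicate 2 of P2-, 0.0219 by DESeq2 and 0.0471 with P2+ in the fit) and Nfe2 of -0.20 (adjusted p = 0.184), while Gata2 fell (-0.32 ± 0.07 (SE), adjusted p = 0.0103). By edgeR's exact test, the tool of the study, Gata2, Myb and Ikzf1 did not pass (adjusted p = 0.171, 0.0646 and 0.106).

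Of the 17 Mk and platelet receptor genes tested (of 20 listed), 16 fell and 0 rose, with a median log2 fold change of -1.32. Their summed level was 2047 to 2439 CPM in WT and 1272 to 1429 CPM in P2- libraries. In pooled cells such a fall can come from fewer cells of a type or from less RNA per cell, and these cannot be told apart. The fibrinogen receptor of platelets consists of the products of Itga2b and Itgb3. Itgb3 had 92.2, 124 and 82.1 CPM in the WT and 17.4, 7.81 and 20 CPM in the P2- libraries, and its lowest value was that of P2- replicate 2. Itga2b had 167, 159 and 139.8 CPM in the WT and 38.6, 53 and 61.5 CPM in the P2- libraries. Neither gene showed overlap between the groups, and the log2 fold changes were -2.71 ± 0.27 (SE), adjusted p = 0.000147 and -1.61 ± 0.15 (SE), adjusted p = 9.42e-05. The von Willebrand factor receptor is built from the products of Gp1ba, Gp1bb, Gp9 and Gp5, and these fell unequally. Gp1bb had 28, 25.3 and 31.6 CPM in the WT and 3.42, 1.35 and 3.95 CPM in the P2- libraries (log2 fold change -3.25 ± 0.28 (SE), adjusted p = 6.44e-05). Its reads are uncertain because the gene lies on the same strand as an overlapping neighbour. Gp9 fell by 1.24, Gp1ba by 0.69 and Gp5 by 0.38 on the log2 scale. Per exonic length the levels in P2- were 65.2 RPKM for Gp5, 17.2 for Gp9 and 10.3 for Gp1ba. Of the receptors that couple to G proteins, the thrombin receptor gene F2rl2 had 53.2, 79 and 75.8 CPM in the WT and 10.1, 11 and 14.7 CPM in the P2- libraries, without overlap (log2 fold change -2.53 ± 0.18 (SE), adjusted p = 2.61e-05). Tbxa2r, the thromboxane A2 receptor, fell from 12.8 ± 1.6 (SD, n = 3) to 2.52 ± 0.813 (SD, n = 3) CPM (log2 fold change -2.34 ± 0.26 (SE), adjusted p = 0.000234). P2ry1, an ADP receptor, fell less (-0.70 ± 0.07 (SE), adjusted p = 0.000197), as did F2rl3, another thrombin receptor (-0.84 ± 0.14 (SE), adjusted p = 0.00266). Itga2, part of a collagen receptor, did not pass the test (log2 fold change -0.87, adjusted p = 0.218), nor without replicate 3 of P2-, its highest P2- library (-1.48, adjusted p = 0.0614).

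Of 18 genes of the alpha granules tested, the storage granules of platelets, 11 fell and 0 rose, with a median log2 fold change of -1.40. Pf4 (ENSMUSG00000029373, chr5:90772435-90773383 in GRCm38, plus strand), a chemokine of these granules, had 65.1, 80.2 and 74.3 CPM in the WT and 3.58, 3.09 and 6.13 CPM in the P2- libraries. Its log2 fold change of -4.07 ± 0.21 (SE, adjusted p = 8.63e-06) was the largest fall among changed genes without overlap that reached 10 CPM in WT, at 16.8-fold lower. Its promoter window (chr5:90772185-90772484, plus strand, RefSeq GRCm38.p6) is shown because of this, with the same motifs in capitals.
Pf4: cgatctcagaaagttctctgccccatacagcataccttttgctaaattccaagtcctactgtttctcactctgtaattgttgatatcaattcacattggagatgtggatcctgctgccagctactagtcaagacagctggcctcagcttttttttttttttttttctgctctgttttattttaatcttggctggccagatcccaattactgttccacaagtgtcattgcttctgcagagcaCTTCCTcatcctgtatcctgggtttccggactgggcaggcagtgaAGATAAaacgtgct
It held 1 GATA and 1 Ets match. Timp3, a metalloproteinase inhibitor, had 24, 35.7 and 27.6 CPM in the WT and 1.03, 2.22 and 5.43 CPM in the P2- libraries (log2 fold change -3.29 ± 0.41 (SE), adjusted p = 0.00054, or -4.2 without replicate 3 of P2-, its highest library). Serpine2, a thrombin inhibitor, fell from 16.2 ± 3.14 (SD, n = 3) to 1.94 ± 0.301 (SD, n = 3) CPM (log2 fold change -3.07 ± 0.24 (SE), adjusted p = 3.38e-05). Vwf, whose product binds platelets to damaged vessels, had 49.4, 65.2 and 65.3 CPM in the WT and 13.7, 13.6 and 19.2 CPM in the P2- libraries. The groups were apart (log2 fold change -1.95 ± 0.16 (SE), adjusted p = 5.3e-05), and so were those of Plek, the protein kinase C substrate pleckstrin, at 576 ± 50 (SD, n = 3) CPM in WT and 121 ± 29.5 (SD, n = 3) CPM in P2- (log2 fold change -2.26 ± 0.15 (SE), adjusted p = 2.2e-05). Genes of granule formation and release moved to different degrees. Rab27b fell by 1.28 and Nbeal2 by 0.73 on the log2 scale, whereas Vps33b (log2 fold change 0.15, adjusted p = 0.565), Vps16 (0.10, adjusted p = 0.475) and Srgn (-0.15, adjusted p = 0.286) did not pass. Ppbp, another platelet chemokine, varied from 0 to 14.9 CPM in P2- and lay between 8.51 and 12.1 CPM in WT, and no difference was detectable (log2 fold change -0.65, adjusted p = 0.643), nor without replicate 1 of P2-, its highest library (-2.35, adjusted p = 0.0706).

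**Figure D2:**
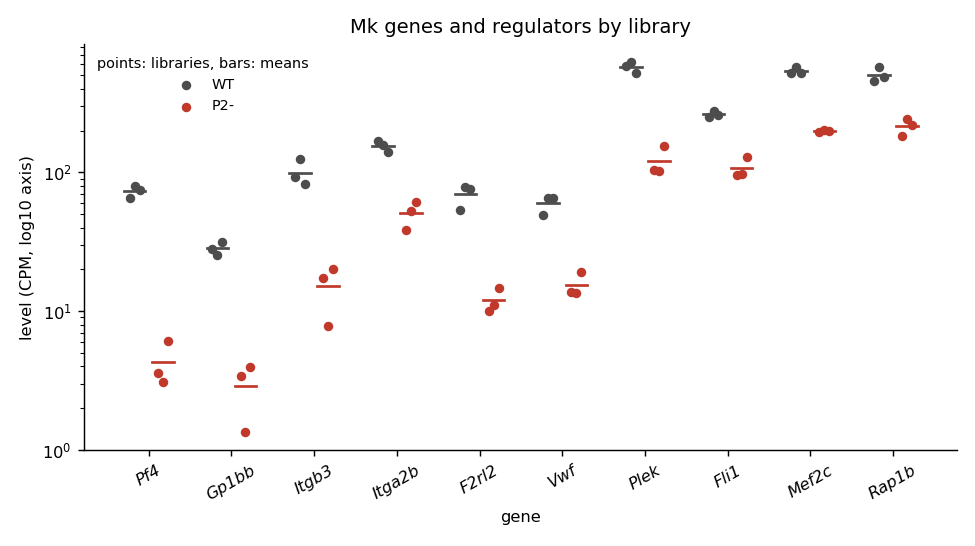
Level of 10 Mk genes and regulators in the 3 WT and 3 P2- libraries (points, CPM on a log10 axis, with a bar at the mean of each group). Only genes in which every P2- library lies below every WT library were taken for this figure, and the gap is widest for Pf4. Of all genes tested, 35.2% had groups without overlap in either direction.

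Of 29 genes of platelet signalling tested, 17 fell and 1 rose, with a median log2 fold change of -0.94. Nitric oxide restrains platelets through cyclic GMP. Gucy1a3 and Gucy1b3, the subunits of soluble guanylate cyclase, had 35, 40.1 and 42.7 CPM in the WT and 7.23, 6.66 and 8.39 CPM in the P2- libraries for the first and 8.38, 9.7 and 9.31 CPM in the WT and 1.03, 1.06 and 1.55 CPM in the P2- libraries for the second. Neither overlapped between groups (log2 fold change -2.40 ± 0.15 (SE), adjusted p = 1.43e-05 and -2.89 ± 0.27 (SE), adjusted p = 9.46e-05). Prkg1, the kinase that cyclic GMP activates, fell by 1.49 and its substrate Mrvi1 by 2.90 on the log2 scale. The phosphodiesterases, which remove cyclic nucleotides, moved in both directions. Pde10a had 16.1, 20.3 and 16.5 CPM in the WT and 0.874, 1.25 and 2.04 CPM in the P2- libraries (log2 fold change -3.64 ± 0.28 (SE), adjusted p = 3.56e-05), Pde5a fell (-0.73 ± 0.12 (SE), adjusted p = 0.00339), and Pde3b was the one gene of the list that rose (0.76), at an adjusted p of 0.0323 that stayed under 0.05 without replicates 1 or 2 of P2- but not without replicates 1, 2 or 3 of WT or 3 of P2- (0.0592 to 0.129). Kcnj5, a potassium channel gated by G proteins, had 33.3, 42.9 and 38.9 CPM in the WT and 3.89, 3.76 and 9.02 CPM in the P2- libraries. It was lower in every P2- library (log2 fold change -2.76 ± 0.29 (SE), adjusted p = 0.000179). Gnaz, a G protein alpha subunit of platelets, fell by 2.03, and Rgs18, a regulator of G protein signalling in Mk cells, by 1.01 on the log2 scale. Rap1b, the GTPase that activates integrins, had 457, 570.2 and 487 CPM in the WT and 184, 244 and 219 CPM in the P2- libraries (log2 fold change -1.23 ± 0.12 (SE), adjusted p = 0.000106). Src and Fyn fell by 1.56 and 1.01, and Syk by 0.58 on the log2 scale, whereas the related kinases Lyn (-0.25, adjusted p = 0.0727, or 0.0366 with library totals alone) and Btk (-0.17, adjusted p = 0.202) did not pass.

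Cytoskeletal genes moved in both directions. Of 19 cytoskeletal genes of Mk cells tested, 9 fell and 3 rose, with a median log2 fold change of -0.31. Myh10 encodes the nonmuscle myosin heavy chain that Mk cells are known to switch off as they become polyploid, and Myh9 the one that they keep. Myh10 had 29.5, 48.5 and 37.9 CPM in the WT and 85.3, 66.5 and 89.9 CPM in the P2- libraries. The P2- libraries were all higher (log2 fold change 1.06 ± 0.17 (SE), adjusted p = 0.00236). Myh9 had 536, 609 and 619 CPM in the WT and 410.1, 462 and 443 CPM in the P2- libraries, with all P2- libraries lower (log2 fold change -0.43 ± 0.08 (SE), adjusted p = 0.00652). Mylk, myosin light chain kinase, fell from 8.08 ± 0.91 (SD, n = 3) to 2.51 ± 1.34 (SD, n = 3) CPM (log2 fold change -1.66 ± 0.34 (SE), adjusted p = 0.00871), and Zyx, zyxin of focal adhesions, fell by 0.96 on the log2 scale. Tubb1, the beta tubulin of platelets, was low in both groups (6.89 ± 1.71 (SD, n = 3) and 4.58 ± 1.82 (SD, n = 3) CPM, adjusted p = 0.249). Of 16 integrin subunits tested, 4 fell and 0 rose. Besides Itga2b and Itgb3 these were Itga6 (-0.58 ± 0.08 (SE), adjusted p = 0.000818) and Itgb6, which was near the filter (2.17 ± 0.567 (SD, n = 3) CPM in WT). Itgb6 did not pass without replicates 1, 2 or 3 of P2- (adjusted p = 0.0642, 0.0697 and 0.0658) or with replicate number as a block (0.0823).

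Of 22 early erythroid genes tested, 15 rose and 1 fell, with a median log2 fold change of 0.77, and without replicate 2 of P2- 19 rose. Their summed level was 2517 to 2916 CPM in WT and 4123 to 4692 CPM in P2- libraries. Cldn13, a claudin of early erythroid cells, had 4.53, 3.97 and 5.09 CPM in the WT and 23.7, 19.5 and 26.4 CPM in the P2- libraries. It was 5.09-fold higher (log2 fold change 2.35 ± 0.18 (SE), adjusted p = 3.65e-05). Sphk1, which makes sphingosine 1-phosphate, had 15.3, 24 and 19.6 CPM in the WT and 103, 66.4 and 92 CPM in the P2- libraries. The groups were apart (log2 fold change 2.15 ± 0.19 (SE), adjusted p = 6.29e-05), although the antisense gene Gm29292 overlaps it. Slc38a5, a transporter of neutral amino acids, had 14.3, 15.8 and 14.7 CPM in the WT and 51.2, 47.4 and 48.1 CPM in the P2- libraries, and the P2- libraries differed little among themselves (log2 fold change 1.71 ± 0.11 (SE), adjusted p = 1.45e-05). Pklr, the pyruvate kinase of red cells, rose (1.25 ± 0.16 (SE), adjusted p = 0.000649), while Pkm, the pyruvate kinase of most other cells, fell from 119 ± 12.7 (SD, n = 3) to 55.1 ± 0.472 (SD, n = 3) CPM (-1.12 ± 0.09 (SE), adjusted p = 4.94e-05). Car1 and Car2, the carbonic anhydrases of red cells, rose by 0.54 and 0.59 and Epor, the erythropoietin receptor, by 0.49 on the log2 scale, the last with an adjusted p of 0.0106 that went to 0.0526 without replicate 2 of WT. Hemgn, a nuclear protein of blood progenitors, was the 1 gene of the list that fell (-0.39, adjusted p = 0.0427). Its adjusted p lay between 0.0509 and 0.149 without replicates 1, 2 or 3 of WT or 2 or 3 of P2-. With replicate number as a block it was 0.075.

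**Figure D3:**
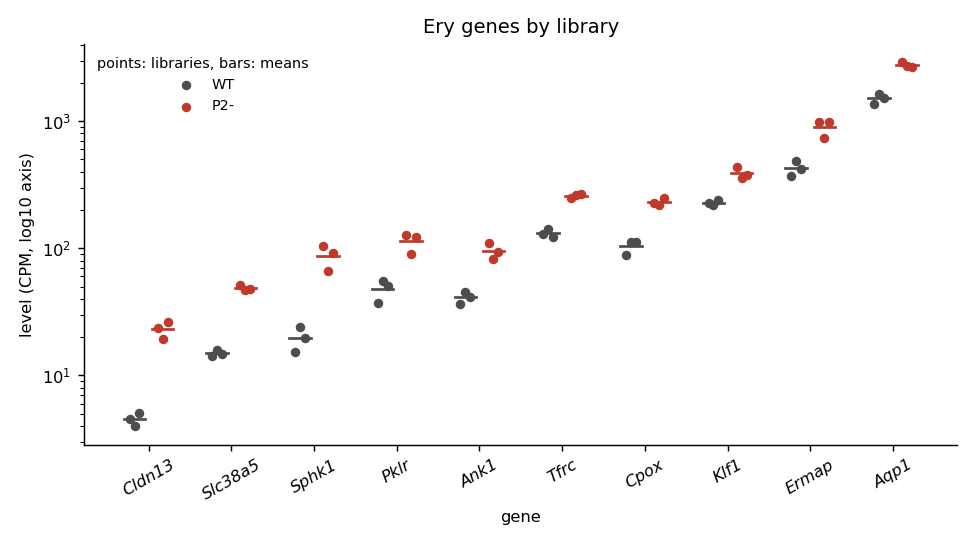
Level of 10 Ery genes in the 3 WT and 3 P2- libraries (points, CPM on a log10 axis, with a bar at the mean of each group). Only genes in which every P2- library lies above every WT library were taken for this figure. Of all genes tested, 35.2% had groups without overlap in either direction.

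Red cell membrane genes were mixed. Of 18 tested 8 rose and 2 fell, with a median log2 fold change of 0.50. Aqp1, the water channel (ENSMUSG00000004655, chr6:55336432-55348555 in GRCm38, plus strand), had 1376, 1644 and 1518 CPM in the WT and 2911, 2694 and 2693 CPM in the P2- libraries. Every P2- library lay above WT (log2 fold change 0.87 ± 0.07 (SE), adjusted p = 4.06e-05). Its window (chr6:55336049-55336348, plus strand) is shown because it was the most abundant of the red cell membrane genes that rose, at 1053 RPKM in P2-.
Aqp1: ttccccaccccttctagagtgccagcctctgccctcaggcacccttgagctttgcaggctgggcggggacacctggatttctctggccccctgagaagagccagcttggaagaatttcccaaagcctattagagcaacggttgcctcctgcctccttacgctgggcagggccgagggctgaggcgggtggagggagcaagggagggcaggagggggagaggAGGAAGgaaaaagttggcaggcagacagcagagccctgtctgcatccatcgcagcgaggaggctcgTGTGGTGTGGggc
It held 1 RUNX and 1 KLF match, which overlap each other, and 1 Ets match. Ermap, an erythroid surface protein, had 369, 490.2 and 422 CPM in the WT and 988, 732 and 993 CPM in the P2- libraries (log2 fold change 1.08 ± 0.13 (SE), adjusted p = 0.000478). Ank1, the ankyrin that ties the spectrin network to the membrane, rose (1.22 ± 0.12 (SE), adjusted p = 0.000133), and so did the Rh genes Rhag (1.54 ± 0.30 (SE), adjusted p = 0.00675) and Rhd (1.70 ± 0.26 (SE), adjusted p = 0.00171). The spectrin gene Sptb (-0.21, adjusted p = 0.527) and the anion exchanger gene Slc4a1 (-0.04, adjusted p = 0.945) did not pass. Tmod1, tropomodulin, which also caps actin outside red cells, fell (-1.92 ± 0.32 (SE), adjusted p = 0.00289).

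Of 15 genes of heme synthesis and breakdown tested, 5 rose and 1 fell, with a median log2 fold change of 0.22. Cpox, a mitochondrial enzyme of the pathway, had 88.1, 113 and 113 CPM in the WT and 229, 221 and 248 CPM in the P2- libraries (log2 fold change 1.15 ± 0.10 (SE), adjusted p = 8.34e-05). No other member rose by 2-fold, and the gene that fell was Hmox1, heme oxygenase, with 3.92, 5.23 and 4.8 CPM in the WT and 1.83, 0.772 and 2.61 CPM in the P2- libraries (log2 fold change -1.39 ± 0.39 (SE), adjusted p = 0.0363). Hmox1 did not pass without replicates 1, 2 or 3 of WT or 1 of P2- (adjusted p from 0.0716 to 0.121). Nor did it pass with P2+ in the fit (0.133) or with replicate number as a block (0.0594). Alas2, the erythroid enzyme of the first step, was at 1.86 ± 0.451 (SD, n = 3) CPM in WT and 1.27 ± 0.829 (SD, n = 3) CPM in P2-, and its difference was not detectable at this depth (log2 fold change -0.60, adjusted p = 0.451, and -1.25, adjusted p = 0.0971, without replicate 2 of P2-). Of 13 iron genes tested, 6 rose and 0 fell. Tfrc, the transferrin receptor, had 129.8, 142 and 123 CPM in the WT and 248, 260.2 and 266 CPM in the P2- libraries, without overlap (log2 fold change 0.97 ± 0.08 (SE), adjusted p = 5.3e-05). Slc40a1, the iron exporter ferroportin, rose (1.19 ± 0.15 (SE), adjusted p = 0.000511), as did Slc11a2, an iron importer (0.63 ± 0.09 (SE), adjusted p = 0.00124), and Steap3, an iron reductase (0.56 ± 0.09 (SE), adjusted p = 0.00204). Among globin genes, only 2 beta globin genes passed the filter, their summed list level was 11.7 to 13.8 CPM in WT and 8.59 to 24.4 CPM in P2-, and none passed the test.

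Of 26 stem cell genes tested, 17 fell and 1 rose (2 without replicate 2 of P2-), with a median log2 fold change of -0.67. Mecom, Mycn and Meis1 belong to this list too. Cd34, a sialomucin of stem and progenitor cells, had 147, 122 and 119.8 CPM in the WT and 52.5, 37.6 and 52.4 CPM in the P2- libraries, and the groups were far apart (log2 fold change -1.45 ± 0.13 (SE), adjusted p = 9.46e-05). Angpt1, a ligand of the TEK receptor, had 715, 749 and 720.2 CPM in the WT and 306, 321 and 367 CPM in the P2- libraries. All P2- libraries were lower (log2 fold change -1.14 ± 0.08 (SE), adjusted p = 2.72e-05), and Tek itself fell by 0.64 on the log2 scale. Hoxa7 (-0.67 ± 0.13 (SE), adjusted p = 0.0067), Hoxa9 (-0.59 ± 0.12 (SE), adjusted p = 0.00846), Hlf (-0.79 ± 0.09 (SE), adjusted p = 0.000394) and Esam (-1.16 ± 0.18 (SE), adjusted p = 0.00228) fell. Cd48, a SLAM family protein absent from stem cells, rose (0.51 ± 0.08 (SE), adjusted p = 0.00264). Tie1, a relative of Tek listed with endothelial genes, fell from 36.5 ± 1.42 (SD, n = 3) to 9.18 ± 2.1 (SD, n = 3) CPM (log2 fold change -2.00 ± 0.17 (SE), adjusted p = 5.55e-05), and of the 12 endothelial and stromal genes only 4 passed the filter, of which 3 fell.

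Lists of other blood lineages were divided, and their counts stand beside 6.85% of all genes tested that rose and 9.6% that fell. Of 21 neutrophil and monocyte genes tested (of 28), 12 fell and 0 rose, and their summed level was 285 to 502 CPM in WT and 141 to 251 CPM in P2-. Mpo, myeloperoxidase, had 137, 50.7 and 52.7 CPM in the WT and 9.86, 16.8 and 7.19 CPM in the P2- libraries. WT replicate 1 was the highest by far, and the log2 fold change went from -2.86 ± 0.41 (SE), adjusted p = 0.00126 to -2.22 without it. Ctsg, cathepsin G, had 12.6, 4.39 and 3.35 CPM in the WT and 1.03, 1.35 and 0.0705 CPM in the P2- libraries, and its log2 fold change of -3.12 ± 0.71 (SE, adjusted p = 0.0146) did not pass without that library (-2.29, adjusted p = 0.0757) and was -2.53 without replicate 3 of P2- (adjusted p = 0.0293). Lyz2, lysozyme, fell too (-1.17 ± 0.15 (SE), adjusted p = 0.000687). The mature neutrophil genes Ngp and S100a8 stood at 42.1 and 11.7 CPM in P2- replicate 2 and at no more than 4.02 and 1.69 CPM in the other 5 libraries. The part of mature myeloid cells in the results was not tested. Of 15 lymphoid genes tested (of 26), 8 fell and 0 rose, and 5 fell without replicate 2 of P2-. Nkg7, a granule protein of cytotoxic lymphocytes, had 217, 225 and 231 CPM in the WT and 108, 127 and 88.3 CPM in the P2- libraries (log2 fold change -1.07 ± 0.12 (SE), adjusted p = 0.000231), and Notch1, a receptor of T cell commitment, fell (-1.22 ± 0.18 (SE), adjusted p = 0.00159). Most other members lay under 10 CPM in every library. Of 6 mast cell, basophil and eosinophil genes tested (of 16), 1 rose and 0 fell (1 fell without replicate 2 of P2-), and their summed level was higher in every P2- library, at 228 to 258 CPM in WT and 387 to 428 CPM in P2-. Most of this sum was Il1rl1, the interleukin-33 receptor, which had 191, 225 and 186 CPM in the WT and 391, 339 and 384 CPM in the P2- libraries and was the gene that rose (0.88 ± 0.10 (SE), adjusted p = 0.000234). Of 4 macrophage genes tested 1 rose, namely Axl, a GAS6 receptor of phagocytes (0.93 ± 0.18 (SE), adjusted p = 0.00692), and 0 fell, with a summed level of 18 to 19.9 CPM in WT and 19.7 to 22.5 CPM in P2-.

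Cell cycle genes differed by list. Of 30 cyclin, kinase and mitosis genes tested 12 fell and 2 rose, none of the falls reaching 2-fold (median log2 fold change -0.31), whereas of 21 DNA replication genes 0 fell and 1 rose (median -0.03). The D cyclins Ccnd1 (-0.87 ± 0.15 (SE), adjusted p = 0.00399) and Ccnd3 (-0.61 ± 0.08 (SE), adjusted p = 0.000682) fell, while Ccnd2 did not pass (-0.11, adjusted p = 0.447). Ccne1, cyclin E1, which drives entry into S phase, had 5.91, 8.35 and 8.59 CPM in the WT and 16.5, 14.2 and 16.5 CPM in the P2- libraries. The groups did not overlap (log2 fold change 1.04 ± 0.19 (SE), adjusted p = 0.00482). The mitotic kinase Aurkb fell by 0.53 and the motor Kif11 by 0.52 on the log2 scale. Of 13 cell cycle inhibitor and p53 genes, 3 rose and 1 fell. Metabolic and immune genes were counted by the same rule, under which 6.85% of all genes tested rose and 9.6% fell. The counts that follow are descriptions, and several lie near these shares. The numbers that rose and fell were 3 and 4 of 21 glycolysis genes, 0 and 2 of 21 cholesterol genes, and 2 and 0 of 15 serine and one-carbon enzymes, among which Mthfd1 of folate metabolism rose (0.75 ± 0.09 (SE), adjusted p = 0.000357). They were 1 and 3 of 22 interferon-stimulated genes and 0 and 3 of 8 class II histocompatibility genes. Without replicate 2 of P2-, 3 interferon-stimulated and 2 replication genes rose, and 2 cell cycle inhibitor and p53 genes fell.

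**Figure D4:**
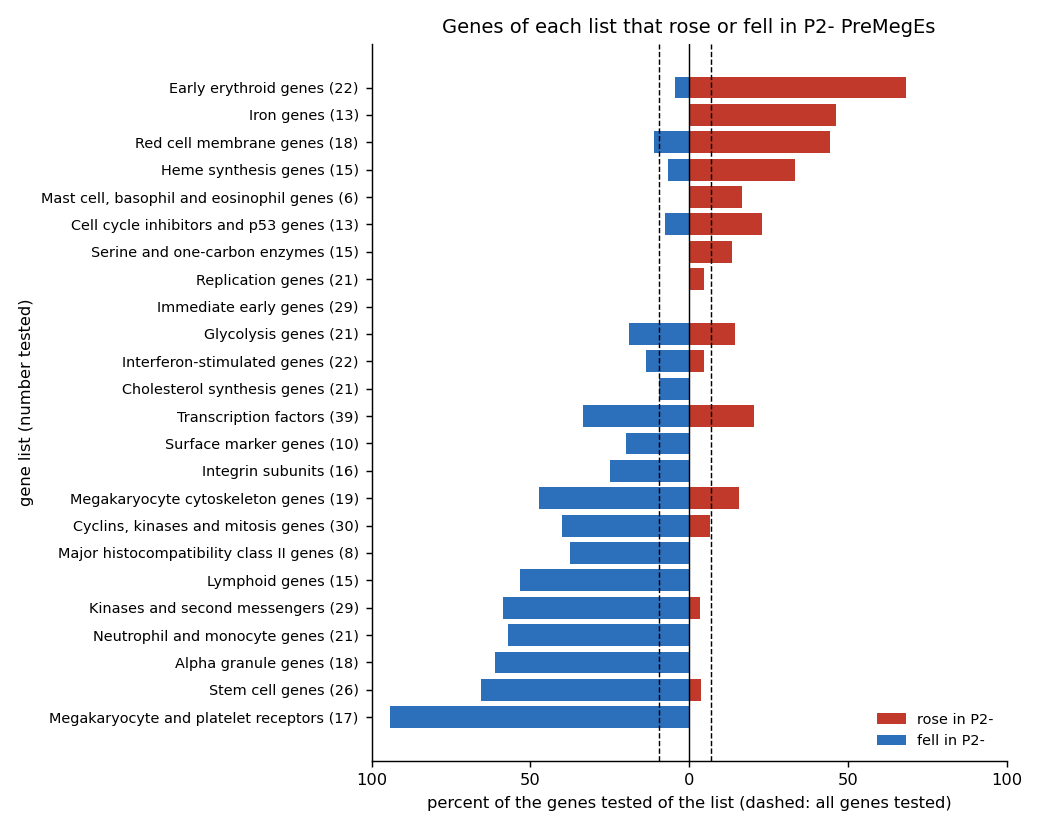
Percent of the tested genes of each list with at least 6 genes tested that rose (right) or fell (left) in P2- relative to WT PreMegEs at an adjusted p under 0.05, with the number tested after each name. Dashed lines mark the 6.85% and 9.6% of all genes tested that rose or fell, and the receptor list reaches furthest left and the early erythroid list furthest right.

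Immediate early genes, which cells switch on within minutes of a stimulus, set 1 library apart from the other 5 of the comparison. Of 29 tested (of 33), 0 rose and 0 fell by edgeR's quasi-likelihood test (9 had an unadjusted p under 0.05, 2 rose by edgeR's exact test and 0 by DESeq2), although their median log2 fold change was 1.98. Within the 6 libraries, all 29 were highest in P2- replicate 2. Their summed level was 17170.0 CPM in that library, 469 and 539 CPM in the other P2- libraries, and 625, 802 and 1879 CPM in WT. High levels were not limited to that library in the series, since 1 of the 3 P2+ libraries had a summed level of 12830.0 CPM (median of P2+ 832 CPM). Egr1, an early growth response factor, had 26.8, 42.4 and 98 CPM in the WT and 26.2, 3049.7 and 27.3 CPM in the P2- libraries. Its log2 fold change of 4.21 (adjusted p = 0.086) turned to -1.07 without replicate 2 of P2-. It passed without replicates 1 or 3 of P2- (adjusted p = 0.0379 and 0.0369), by edgeR's exact test (0.0275) and without a filter on low counts (0.00212). Fosb, an AP-1 subunit, had 0.0687, 1.6 and 76.9 CPM in the WT and 0.238, 2488 and 0.282 CPM in the P2- libraries, so that WT replicate 3 was also above the other WT libraries (adjusted p = 0.201, or 0.0241 without a filter). In none of the 29 genes were both other P2- libraries above all WT libraries. Without replicate 2 of P2-, 9 of the 26 genes that passed the filter fell and 0 rose, and their median log2 fold change was -0.90. That library was left out because of these same genes, so these values, and those of single genes below, are a description and no test. Btg2, an antiproliferative factor, had a log2 fold change of 1.56 (adjusted p = 0.268) in all 6 libraries and -1.15 (adjusted p = 9.35e-05) without replicate 2 of P2-. For Klf6, a zinc finger factor, the values were 1.34 (adjusted p = 0.325) and -1.22 (adjusted p = 5.92e-05).

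**Figure D5:**
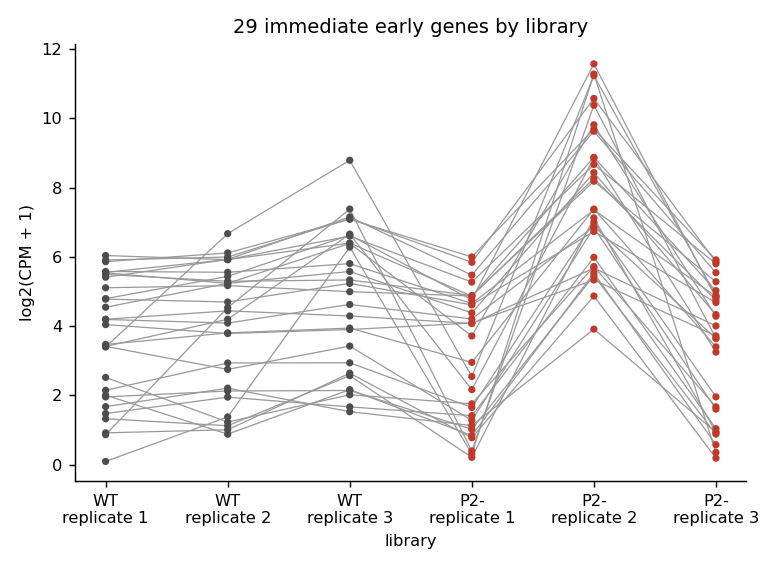
Level of 29 immediate early genes in each of the 6 libraries (1 line per gene, log2 of CPM + 1 on the y axis). Replicate 2 of P2- holds the highest value of all 29 genes.

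The groups did not overlap in 594 of the 597 changed genes, and in 35.2% of all genes tested. In 275 of these changed genes the mean of the higher group was at least 10 CPM, 47 of them higher and 228 lower in P2-. Cmah, which hydroxylates sialic acid, showed the largest rise of these with 7.21, 8.27 and 7.13 CPM in the WT and 45.1, 35.4 and 37.3 CPM in the P2- libraries. It was 5.2-fold higher (log2 fold change 2.38 ± 0.15 (SE), adjusted p = 1.45e-05). Camsap2, which binds the minus ends of microtubules, had 7.63, 7.93 and 7.13 CPM in the WT and 40.4, 24.5 and 40.4 CPM in the P2- libraries (log2 fold change 2.21 ± 0.20 (SE), adjusted p = 8.21e-05). The copper pump gene Atp7b rose by 1.83, the sulfotransferase gene Chst1 by 2.02, the membrane protease gene Hpn (hepsin) by 2.09, the sterol transporter gene Abcg4 by 1.59, the anion exchanger gene Slc26a1 by 1.58 and the glypican gene Gpc4 by 1.60 on the log2 scale. Rrad, a small GTPase, had 3.16, 3.8 and 2.62 CPM in the WT and 4.53, 20.3 and 6.48 CPM in the P2- libraries, and its log2 fold change of 1.69 (adjusted p = 0.0416) became 0.78 (adjusted p = 0.109) without replicate 2 of P2-. It also passed in none of the fits that left out 1 WT library (adjusted p from 0.0986 to 0.131), and not with P2+ in the fit (0.0864). On the other side, Kcnc1, a voltage-gated potassium channel, had 49.5, 44.7 and 41 CPM in the WT and 5.41, 3.76 and 5.07 CPM in the P2- libraries. It was 9.44-fold lower (log2 fold change -3.24 ± 0.16 (SE), adjusted p = 8.63e-06). Sdpr, the caveolar protein cavin-2, had 120.2, 159 and 145 CPM in the WT and 11.5, 16.6 and 27.3 CPM in the P2- libraries (log2 fold change -2.93 ± 0.25 (SE), adjusted p = 5.71e-05). Dhrs3, which reduces retinal, fell by 3.17, Cdcp1, a surface substrate of Src kinases, by 3.19 (3.83 without replicate 3 of P2-) and the RNA-binding gene Rbpms2 by 3.24 on the log2 scale. Emb, a partner of monocarboxylate transporters, had 37.6, 13.2 and 18.3 CPM in the WT and 3.5, 2.51 and 1.97 CPM in the P2- libraries, with WT replicate 1 the highest (log2 fold change -3.12 ± 0.39 (SE), adjusted p = 0.000547).

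The same genes are set beside the P2+ libraries of the reporter mice, which were not part of the fit. Pf4 was at 73.2 ± 7.62 (SD, n = 3) CPM in WT, at 4.27 ± 1.64 (SD, n = 3) CPM in P2- and, in P2+, at 72.4 ± 25.7 (SD, n = 3) CPM. Itga2b, at 155 ± 14.2 (SD, n = 3) CPM in WT and 51 ± 11.5 (SD, n = 3) CPM in P2-, reached 284 ± 35.2 (SD, n = 3) CPM in P2+. For Kcnc1 the P2+ level was 7.08 ± 1.21 (SD, n = 3) CPM, below WT (45.1 ± 4.23 (SD, n = 3)) and near P2- (4.75 ± 0.869 (SD, n = 3)). Among the higher genes, Cldn13 was at 4.53 ± 0.564 (SD, n = 3) CPM in WT, at 23.2 ± 3.5 (SD, n = 3) CPM in P2- and, in P2+, at 1.62 ± 0.744 (SD, n = 3) CPM. Ermap was at 427 ± 60.9 (SD, n = 3) CPM in WT, at 904 ± 149 (SD, n = 3) CPM in P2- and, in P2+, at 22.7 ± 11.9 (SD, n = 3) CPM. These values are given side by side only, since comparisons with WT would share the same 3 control libraries.

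By annotated type, 65 higher and 495 lower genes of the 73 and 524 changed by at least 2-fold were protein coding, 5.02% of the 11153 protein coding genes tested. Of 1049 pseudogenes, whose reads can be shared with their parent genes, 1.05% were changed, and of 211 long intergenic RNAs 4.27%. In the promoter windows of genes with a single RefSeq start, the RUNX letters were found in 12.4% of 6952 genes tested, 16.3% of 295 lower and 17.6% of 34 higher genes. The Ets letters were in 33%, 45.4% and 29.4%, the GATA letters in 5.85%, 8.14% and 11.8%, and the KLF letters in 7.36%, 8.14% and 17.6%. These shares are descriptions and were not tested.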

How the data were processed

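The deposited values are integer counts per gene and library, which the authors made by aligning paired reads (poly(A) RNA, strand-specific kit) to GRCm38 with Bowtie2 and assigning them to Ensembl genes with featureCounts. Whether strand was used in counting, and how reads with several alignments were treated, is not given in the sources used here, so overlapping genes and genes with near-identical copies are uncertain.

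Groups followed the labels. Genes were compared 3 against 3 with edgeR 4.0.16 in R 4.3.3 (TMM scaling, quasi-likelihood test on group alone, Benjamini-Hochberg adjustment over the 12767 genes with at least 1 CPM in 3 of 6 libraries). The study used edgeR's exactTest, kept here as an alternative together with DESeq2 1.42.0, other scalings, filters and left-out libraries. The test was checked on simulated data. The SE printed with a log2 fold change is the size of that change divided by the square root of the F statistic of the test. Printed CPM were TMM-scaled over the WT, P2- and P2+ libraries. RPKM and positions used GENCODE vM21, matched for 12687 genes.

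The comparison and gene lists were chosen with earlier results of these data known. Named genes are Runx1, list members, changed genes within 10 Mb of Runx1, and the 13 largest rises and falls of changed genes whose groups did not overlap, with a mean of at least 10 CPM in the higher group. Some listed genes are not reported by name. Nothing in the labels says that replicates were sequenced in separate batches.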

Additional observations from a re-analysis of the deposited data

How the results depend on the processing

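All 597 changed genes, 73 higher and 524 lower, were recounted under each alternative. With a filter of at least 5 CPM in 3 libraries, 390 genes were changed and 338 lower, with fewer genes tested. Without a filter 131 were higher. Without the 2-fold limit 2101 passed, 875 higher and 1226 lower. A test against a change of 2-fold passed 90, 8 higher and 82 lower. Leaving out 1 library at a time gave 402 to 622 changed, 56 to 82 higher and 346 to 548 lower genes. The other settings stayed within 1.5 times of the counts, and gave 705 changed genes with edgeR's exactTest, 629 with DESeq2, 597 with RLE size factors, 630 with library totals alone and 626 with the P2+ libraries in the same fit. Replicate numbers were not used to pair WT with P2- libraries, since the labels do not say whether same-numbered libraries were prepared together. The deviations of same-numbered libraries from their group means correlated across genes at 0.08584, -0.02332 and -0.09776, and a replicate block gave 525 changed genes. With so few libraries, and replicate 2 of P2- standing apart, these correlations cannot show whether preparation was shared. Of 113 named genes past the threshold, 11 missed it under at least 1 setting, the test against a change of 2-fold not counted. Btg2 and Klf6 changed direction without replicate 2 of P2-, with log2 fold changes of -1.15 to 2.07 and -1.22 to 1.84 over the fits without 1 library. Egr1, which did not pass in all 6 libraries, also turned (-1.07 to 4.9). The cause was not tested. Library totals alone moved the median log2 fold change of all genes from 0.0107 to -0.0444. Genes near 1 CPM rest on few counts, which limits the differences that can be seen there.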
